A study of Homo sapiens with 8 samples.

Results

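G1/S transition and DNA replication genes were described in tumor cells of mice given CpG-ODN or saline; the tumors came from IGROV-1, an established line of human ovarian carcinoma that grows in the peritoneum. The set holds 37 genes chosen by symbol for their roles in licensing, origin firing, the first DNA polymerase and new chromatin, nucleotide supply, and the cyclins and E2F factors that start S phase. A probe was kept where its detection p was under 0.05 on at least 4 of the 8 arrays. This left 44 of the set's 51 probes and 33 of its 37 genes, out of 18184 kept probes and 11023 measured genes in all. Where a gene had several kept probes the brightest on average stood for it, and all values are log2 normalized intensities from 1-colour Illumina bead arrays, on which the levels of different probes cannot be set against each other.

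Each group had 4 arrays of total RNA. Per the labels, IGROV-1 was kept by passage of ascites from mouse to mouse, every mouse received ascitic cells into the peritoneum, and treatment began 10 to 11 days later, once ascites had formed. The treated group received CpG-ODN into the peritoneum at 20 µg per mouse and the control group received saline. Dosing was on 3 consecutive days or 1 time, and since no array is tied to either schedule they were not separated here. Cells attached to the peritoneal wall were frozen 24 hours after the last treatment. With 4 mice named per group and no array tied to a mouse, p-values here cover only the spread among arrays, which may be technical. The mouse strain is not named, and the tumor is human in a mouse host. CpG-ODN is a synthetic DNA oligonucleotide that TLR9 recognises through unmethylated CG pairs, and it is shown because it is the agent compared; its CG pairs are in capitals.
ODN1826: tccatgaCGttcctgaCGtt

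Before S phase, the origin recognition complex, CDC6 and CDT1 load the MCM helicase onto origins, which licenses them. At the G1/S transition cyclin-dependent kinases, CDK2 with cyclin E among them, release E2F factors and, with a further kinase, fire the origins, as MCM10, CDC45 and the GINS complex turn the loaded helicase into an active one. DNA polymerase alpha and primase then lay the first primers, ribonucleotide reductase and thymidylate synthase supply the nucleotides, and chromatin factors package the new strands. The transcripts of many of these proteins rise as cells enter S phase, and as a set they are often read as a sign of proliferation in tumors. In bulk samples such as these, fewer cells in S phase and less transcript per cell cannot be told apart.

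The labelled cell type was checked first. Of 13 markers of ovarian carcinoma epithelium 11 were measured, PAX8, EPCAM, KRT8 and MUC16 among them, each detected on all 8 arrays, while WT1 and CLDN4 had no kept probe. Mean raw signal lay between 876 and 1079 in saline and between 806 and 1073 with CpG-ODN. The saline arrays detected 18784 to 20114 probes and the CpG-ODN arrays 18425 to 18570 (two-sided p = 0.0286 by an exact permutation test, the smallest that 4 against 4 allows). The groups did not overlap in the number of probes detected, and its part in the results below was not tested.

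Many of the replication genes were lower with CpG-ODN and none passed the test as higher. Of the 33 measured genes 13 fell, all of them detected on all 8 arrays, and 0 rose (limma, adjusted p under 0.05 over all kept probes). At an unadjusted p under 0.05 the 95% interval of the change excluded 0 for a further 6, all lower. The share of all genes at this looser level was not counted, so that count has no background to be read against. Of all kept probes 26.6% were called in either direction. Over all 11023 genes 16.3% were called lower and 12.9% higher, against 39.4% and none of the replication genes. The median log2 change of the replication genes was -0.35, and the median over all genes was -0.01, which quantile normalization of the arrays holds near 0. The change was negative for 29 of the 33 and positive for 4. Of these 4, CDT1, GINS4 and SLBP turned negative by median scaling, where the median of all genes moved to -0.13. By median scaling over kept probes, chosen after seeing the data, MCM2 and ORC6 turned positive, and the median of all genes was 0.07. The groups did not overlap, with every CpG-ODN array below every saline array, for 16 of the 33, where 18.0% of all genes behaved so, and no replication gene had every CpG-ODN array above every saline array, where 14.8% of all genes did.

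**Figure D1:**
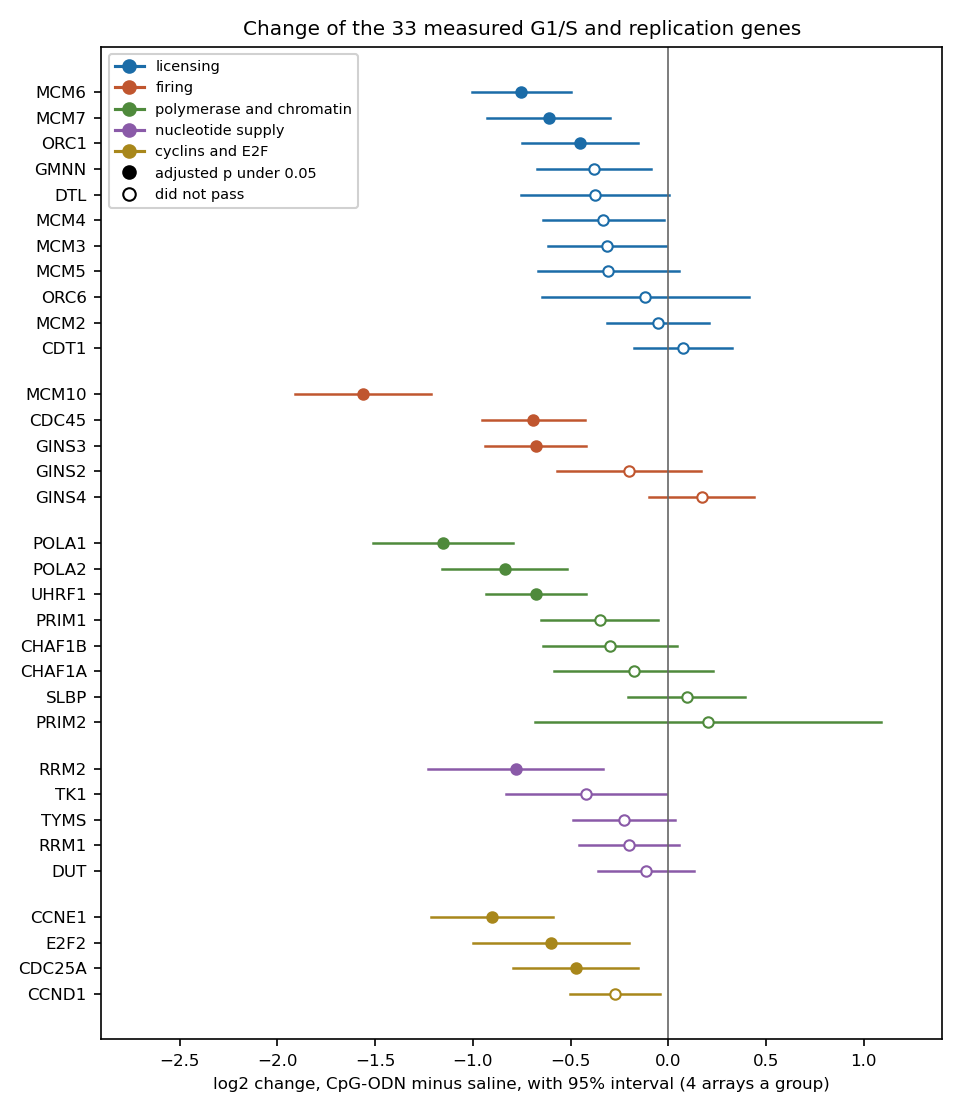
Log2 change of each of the 33 measured genes (CpG-ODN minus saline, horizontal axis) with its 95% interval, grouped by step and coloured by it. Filled points passed an adjusted p of 0.05 and lie between -1.56 for MCM10 and -0.45 for ORC1, while open points did not pass and lie between -0.42 and 0.20.

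Among the licensing genes 3 of 11 fell and none rose, 27.3% lower against 16.3% of all genes, with a median of -0.33. MCM6, a subunit of the helicase ring, stood at 12.81, 12.83, 12.85 and 13.04 in saline replicates 1 to 4 and at 12.17, 12.00, 12.12 and 12.24 with CpG-ODN. The groups did not overlap, and the fall was -0.75 ± 0.12 on the log2 scale (SE, n = 4 arrays a group, adjusted p = 0.00122 by limma). MCM7, another subunit of the same ring, stood at 12.99, 13.26, 13.18 and 13.46 in saline and at 12.46, 12.47, 12.68 and 12.83 with CpG-ODN. All CpG-ODN arrays lay below all saline arrays, with a change of -0.61 ± 0.14 (adjusted p = 0.0102, limma). ORC1, the ATPase of the origin recognition complex, stood at 8.88, 8.74, 8.95 and 8.76 in saline and at 8.10, 8.45, 8.39 and 8.59 with CpG-ODN. CpG-ODN replicate 1 was the lowest, the groups did not overlap, and the change was -0.45 ± 0.13 (adjusted p = 0.0308, limma). The call of ORC1 was lost on leaving out any 1 of 5 arrays, saline replicates 1 and 3 and CpG-ODN replicates 1 to 3, with adjusted p from 0.0520 to 0.0779.

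The other 4 subunits of the MCM ring did not pass. MCM3 stood at 13.15, 13.49, 13.55 and 13.59 in saline and at 12.97, 13.13, 13.30 and 13.12 with CpG-ODN, a change of -0.31 with a 95% interval from -0.62 to -0.01 (adjusted p = 0.116, limma). MCM4 was measured at -0.33 with an interval from -0.64 to -0.02 (adjusted p = 0.108), and MCM5 at -0.31 with an interval from -0.67 to 0.05 (adjusted p = 0.195). Saline replicate 1 was the lowest saline array for MCM3 and MCM4 by these probes. Without it both passed, with changes of -0.41 and -0.44 (adjusted p = 0.0443 and 0.0323, limma). Leaving out a gene's lowest saline array makes its fall larger in any case, so these values do not replace the result of all 8 arrays. The second probe of MCM3, detected on all 8 arrays, stood at -0.06 with an interval from -0.36 to 0.24 (adjusted p = 0.781, limma). That of MCM4 stood at -0.32 (adjusted p = 0.108, limma). MCM2 was nearest to 0, with 10.97, 10.82, 11.03 and 10.87 in saline and 10.78, 11.02, 10.93 and 10.75 with CpG-ODN. Its change was -0.05 with an interval from -0.31 to 0.21, which leaves out the size measured for MCM6.

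Neither the loader CDT1 nor the genes that restrain it passed. CDT1, which brings the helicase to origins, stood at 10.21, 10.28, 10.27 and 10.12 in saline and at 10.15, 10.28, 10.35 and 10.41 with CpG-ODN. These values overlapped, and the change of 0.08 had an interval from -0.17 to 0.32 (adjusted p = 0.670, limma). GMNN, which encodes geminin, the inhibitor of CDT1, stood at 10.97, 10.84, 11.12 and 10.88 in saline and at 10.49, 10.40, 10.58 and 10.82 with CpG-ODN. The groups were separated by 0.01, and the change of -0.38 had an interval from -0.67 to -0.09 with an adjusted p of 0.0547, just outside the threshold. DTL, the substrate receptor of the ubiquitin ligase that removes CDT1 in S phase, stood at -0.37 with an interval from -0.75 to 0.00 (adjusted p = 0.132). ORC6, a small subunit of the origin recognition complex, stood at -0.12 with a wide interval, from -0.65 to 0.41. Its CpG-ODN replicate 3 was at 14.43 and the other CpG-ODN arrays were between 15.20 and 15.69. The second probe of ORC6 did not repeat this, with CpG-ODN replicate 3 the highest of its group at 9.78. By that probe the change was -0.01 with an interval from -0.39 to 0.37.

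CDC6, the ATPase that helps to load the helicase, had no kept probe. Its only probe was detected on 3 of 4 saline arrays and on none of the CpG-ODN arrays. The normalized values were 6.09, 5.41, 6.27 and 5.92 in saline and 4.92, 5.12, 5.39 and 5.02 with CpG-ODN, where they have only a bound. From the mean of all 4 saline arrays, the undetected one included, it was at least 1.10-fold lower. Each CpG-ODN array was set at its dimmest detected probe where CDC6 lay under that. The bound thus rests partly on background, and CDC6 was not tested among the kept probes.

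The firing factors held the largest fall of the set. Of 5 measured genes 3 were lower and none higher, 60% lower against 16.3% of all genes, with a median of -0.68. MCM10, which is needed to activate the loaded helicase, stood at 10.63, 10.67, 11.23 and 10.61 in saline and at 9.07, 9.31, 9.23 and 9.29 with CpG-ODN. The gap between the groups was 1.30, and the change was -1.56 ± 0.16, a 2.95-fold fall (adjusted p = 0.000144, limma). Of all 11023 genes, 93 had a more negative change. CDC45, which joins the helicase as it fires, stood at 11.03, 11.05, 11.15 and 11.13 in saline and at 10.26, 10.41, 10.33 and 10.61 with CpG-ODN. It fell by 0.69 ± 0.12 on the log2 scale (adjusted p = 0.00219, limma), and its groups did not overlap.

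Of the GINS subunits, which bind CDC45 and the MCM ring, GINS3 alone passed. GINS3 stood at 9.92, 9.92, 10.05 and 9.80 in saline and at 9.40, 9.20, 9.26 and 9.12 with CpG-ODN, lower on every CpG-ODN array, with a change of -0.68 ± 0.12 (adjusted p = 0.00220, limma). GINS2 stood at -0.20 with an interval from -0.57 to 0.17, and GINS4 at 0.17 with an interval from -0.10 to 0.44. Neither passed (adjusted p = 0.412 and 0.339). The value of GINS4 turned to -0.0262 with median scaling, and the difference between the subunits was not tested. GINS1 was not above background on any array.

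Both catalytic and regulatory subunits of DNA polymerase alpha were lower. In their group 3 of 8 genes fell and none rose, 37.5% lower against 16.3% of all genes (median -0.33). POLA1, the catalytic subunit, stood at 8.17, 8.22, 8.32 and 8.13 in saline and at 7.46, 7.17, 6.81 and 6.78 with CpG-ODN. The saline arrays lay close together and the CpG-ODN arrays were all lower and more spread, and the change was -1.15 ± 0.16, a 2.22-fold fall (adjusted p = 0.000734, limma). POLA2, the regulatory subunit, stood at 10.53, 10.79, 10.97 and 10.81 in saline and at 9.75, 9.84, 9.95 and 10.22 with CpG-ODN, without overlap. Its change was -0.84 ± 0.14 (adjusted p = 0.00223, limma).

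The primase subunits, which work in the same complex, did not pass. PRIM1, the catalytic primase, stood at -0.35 with an interval from -0.65 to -0.05 (adjusted p = 0.0792). PRIM2 was dim and scattered, detected on 3 of 4 saline arrays and on all CpG-ODN arrays, with saline values from 5.33 to 7.47. Its interval, from -0.68 to 1.09, was the widest of the set.

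UHRF1, which recruits the maintenance DNA methyltransferase to newly copied DNA, fell without overlap. Its values were 11.60, 11.80, 11.57 and 11.60 in saline and 10.91, 10.89, 10.94 and 11.12 with CpG-ODN, a change of -0.68 ± 0.12 (adjusted p = 0.00212, limma). The subunits of the histone loader CAF-1, CHAF1A and CHAF1B, stood at -0.18 and -0.30 (adjusted p = 0.520 and 0.184). SLBP, which binds the stem-loop of replication-dependent histone mRNAs, stood at 0.10 with an interval from -0.20 to 0.39.

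Of the 5 genes of nucleotide supply, RRM2 alone passed, 20% against 16.3% of all genes lower, and all 5 had negative values with a median of -0.23. RRM2, the small subunit of ribonucleotide reductase, stood at 10.12, 10.73, 9.73 and 10.31 in saline and at 9.28, 9.39, 9.74 and 9.35 with CpG-ODN. CpG-ODN replicate 3 reached just above saline replicate 3, so the groups overlapped by 0.01, and the change was -0.78 ± 0.20 (adjusted p = 0.0173, limma). RRM1, the large subunit of the same enzyme, stood at 12.72, 12.80, 12.89 and 13.04 in saline and at 12.67, 12.68, 12.60 and 12.69 with CpG-ODN. The groups of RRM1 were separated by 0.02, and its change of -0.20 had an interval from -0.45 to 0.05 (adjusted p = 0.230). TYMS, which makes thymidylate, stood at 12.89, 12.89, 12.90 and 13.09 in saline and at 12.60, 12.62, 12.85 and 12.80 with CpG-ODN, a change of -0.23 (interval -0.49 to 0.03, adjusted p = 0.185). The thymidine kinase gene TK1 stood at -0.42 with an interval from -0.83 to -0.01 (adjusted p = 0.122). DUT, whose product removes dUTP, stood at -0.12 with an interval from -0.36 to 0.13.

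Of the cyclins and E2F genes, a group that also holds the phosphatase CDC25A, 3 of the 4 measured fell and none rose. That is 75% lower, CDC25A included, against 16.3% of all genes (median -0.54). CCNE1, the cyclin that activates CDK2 at the G1/S transition, stood at 9.81, 10.09, 10.36 and 10.28 in saline and at 9.25, 9.27, 9.30 and 9.12 with CpG-ODN. The CpG-ODN arrays were tightly grouped below all saline arrays, and the change was -0.90 ± 0.14, a 1.87-fold fall (adjusted p = 0.00136, limma). CCND1, the cyclin of the preceding G1 step, stood at 14.15, 14.03, 14.15 and 14.13 in saline and at 13.91, 13.83, 13.81 and 13.82 with CpG-ODN. Its groups did not overlap either, but the change was small, -0.27 with an interval from -0.50 to -0.04, and it did not pass (adjusted p = 0.0764, limma).

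E2F2, an activating E2F factor, stood at 10.12, 10.28, 10.65 and 10.42 in saline and at 9.42, 9.91, 9.61 and 10.13 with CpG-ODN. The highest CpG-ODN array, replicate 4, reached just above saline replicate 1, and the change was -0.60 ± 0.18 (adjusted p = 0.0318, limma). CDC25A, the phosphatase that frees CDK2 from inhibition, stood at 8.72, 8.84, 9.19 and 8.85 in saline and at 8.16, 8.49, 8.55 and 8.50 with CpG-ODN, without overlap, a change of -0.47 ± 0.14 (adjusted p = 0.0338, limma). Both calls were near the threshold. E2F2 lost its call on leaving out any 1 of 5 arrays, saline replicates 2, 3 and 4 and CpG-ODN replicates 1 and 3, with adjusted p up to 0.0815. CDC25A lost its call on leaving out any 1 array other than saline replicate 1 and CpG-ODN replicate 3, with adjusted p up to 0.0879. CCNE2 was not above background on any array and E2F1 was above it on 1 saline array alone, so neither was compared.

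**Figure D2:**
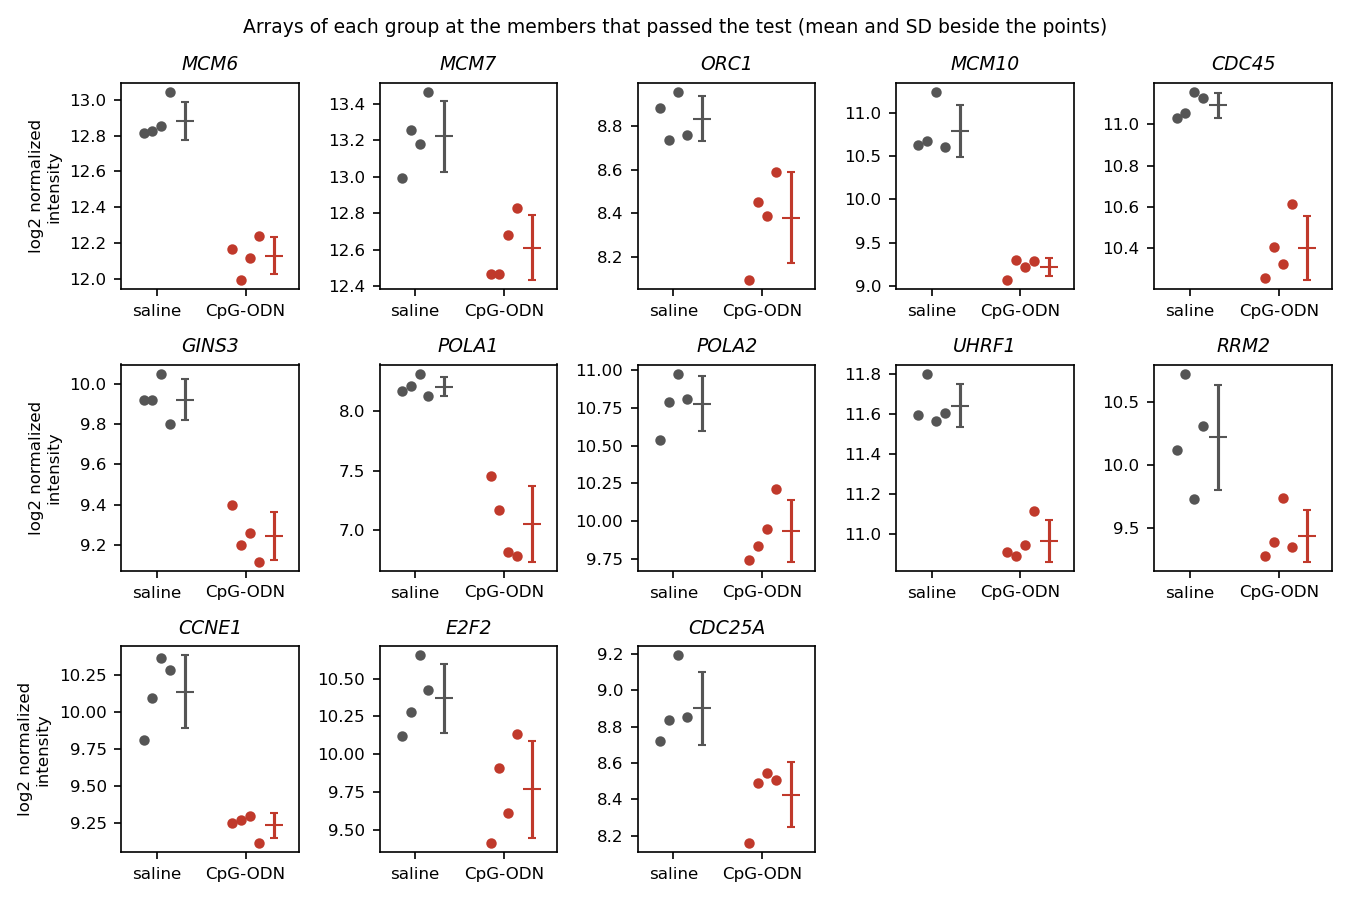
Log2 normalized intensity of every array for the 13 genes that fell, saline in grey and CpG-ODN in red, in order of replicate from left to right, with the mean and SD (n = 4) beside the points; each panel has its own vertical scale. The groups are apart in all panels except RRM2 and E2F2, where 1 CpG-ODN array reaches the lowest saline array.

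Of 10 replication genes with several kept probes, all had probes of the same sign, but the second probe often did not pass. MCM10 passed by both probes, the second at -1.55 ± 0.24 (adjusted p = 0.00123, limma), with 8.37, 8.30, 8.21 and 8.47 in saline and 5.99, 6.87, 7.02 and 7.27 with CpG-ODN. MCM7, POLA1 and UHRF1 passed by their brightest probe alone. The second probe of MCM7 was at 7.07, 8.43, 7.19 and 8.60 in saline, a spread that its CpG-ODN values of 7.61 to 7.96 lay within, and it stood at -0.04 with an interval from -0.77 to 0.69. The second probe of POLA1 stood at -0.11 (adjusted p = 0.736) and was detected on 3 saline and 2 CpG-ODN arrays. That of UHRF1 stood at -0.31 (adjusted p = 0.396) and was missed on 1 CpG-ODN array. By the mean of all kept probes of a gene MCM7 stood at -0.33 and no longer passed (adjusted p = 0.301), nor did it with median scaling over kept probes, chosen after seeing the data (-0.43, adjusted p = 0.0517). Over probes in place of genes, 14 of 44 were called lower and 0 higher, where 13.9% of all kept probes were lower and 12.8% higher.

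The arrays of a group differed in how far the replication genes lay from the saline mean. The median deviation over the 33 genes was -0.47, -0.41, -0.35 and -0.30 on CpG-ODN replicates 1 to 4. On saline replicates 1 to 4 it was -0.10, 0.01, 0.06 and 0.04, so that every CpG-ODN array lay below every saline array. The median over all genes stayed between -0.01 and 0.01 on each of the 8 arrays. Quantile normalization, which gives every array 1 distribution, largely fixes that in advance, so it is no independent contrast. CpG-ODN replicate 1 was the lowest array of its group for 16 of the 33 genes, and saline replicate 1 was the lowest of its group for 16. The median SD within a group was 0.18 for the replication genes and 0.21 for all genes.

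**Figure D3:**
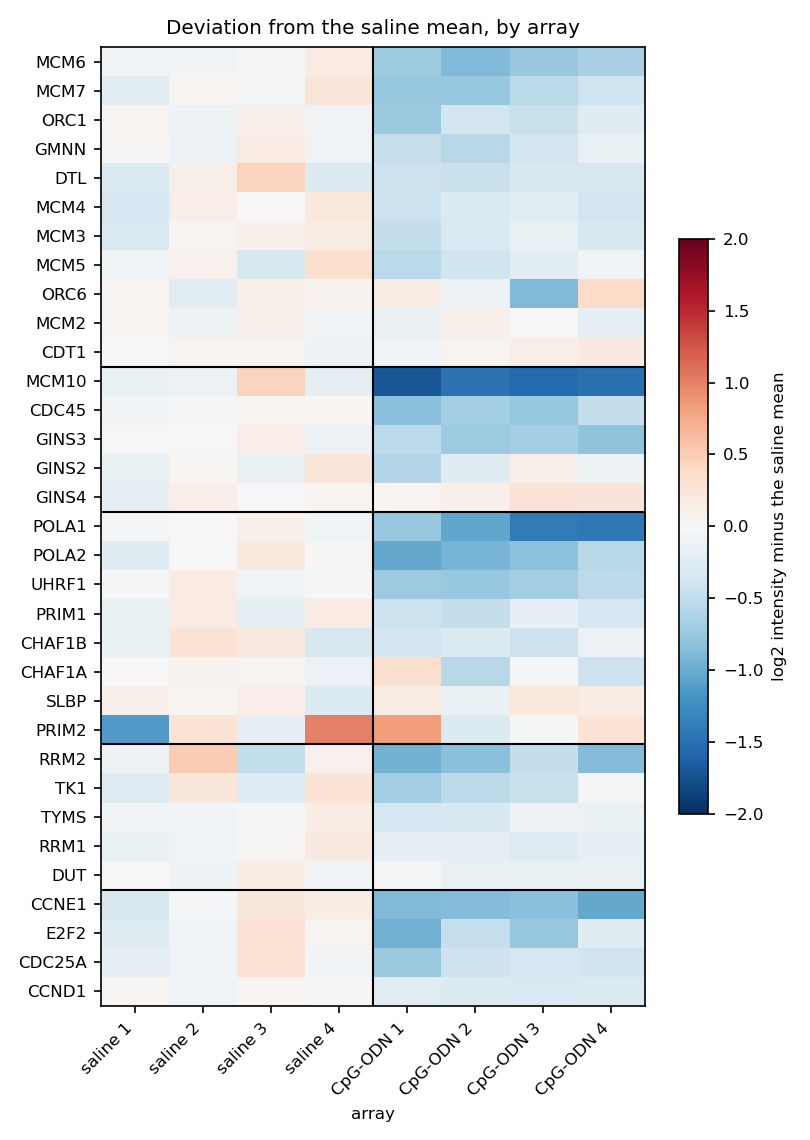
Deviation of each of the 33 genes from its saline mean (log2 intensity, blue lower and red higher) on each array, with black lines between steps and between groups. MCM10 and POLA1 are the darkest rows with CpG-ODN, PRIM2 varies within saline, and CDT1, SLBP and GINS4 are pale, with mean changes of 0.08, 0.10 and 0.17.

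Promoter sequence was read for the genes to see what they share outside the arrays. RefSeq windows of GRCh38.p14, from 250 bases before to 50 after a gene's start, matched 32 of the 37 genes, MCM4, MCM5, GINS4, CCNE2 and CCND1 being the others. The E2F motif was searched as 4 words, TTTCCCGC, TTTCGCGC, TTTGCCGC and TTTGGCGC, on both strands, where matches on opposite strands may overlap. At least 1 word stood in a window of 19 of the 32 genes, 59.4%, and in 3.99% of all 27305 genes with a window. Of the 13 genes that fell 8 held it, and of the 16 other measured genes with a window 8 held it as well. The box CCAAT, on either strand, stood in 21 of the 32 genes and in 39.7% of all genes. For comparison, 3 of 31 G2/M and mitosis genes held an E2F word and 25 held CCAAT. A match is a run of letters in this window and says nothing of binding.

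The 160 bases before the start are shown for 4 genes that fell, to set promoters with the E2F words beside that of the gene with the largest fall; E2F words and CCAAT boxes (ATTGG on the other strand) are in capitals. MCM6 (chr2:135876444-135876603, minus strand) has 2 stretches in which an E2F word on one strand overlaps one on the other. POLA2 (chr11:65261802-65261961, plus strand) and CDC25A (chr3:48188418-48188577, minus strand) have 1 word each in the stretch shown, and MCM10 (chr10:13161398-13161557, plus strand) has CCAAT boxes alone.
MCM6: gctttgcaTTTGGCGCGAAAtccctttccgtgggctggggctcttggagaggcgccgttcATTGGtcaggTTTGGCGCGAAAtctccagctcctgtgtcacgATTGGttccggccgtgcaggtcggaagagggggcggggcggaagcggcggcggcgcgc
POLA2: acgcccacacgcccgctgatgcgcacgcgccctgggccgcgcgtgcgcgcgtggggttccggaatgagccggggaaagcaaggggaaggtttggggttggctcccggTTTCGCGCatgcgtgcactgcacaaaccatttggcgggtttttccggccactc
CDC25A: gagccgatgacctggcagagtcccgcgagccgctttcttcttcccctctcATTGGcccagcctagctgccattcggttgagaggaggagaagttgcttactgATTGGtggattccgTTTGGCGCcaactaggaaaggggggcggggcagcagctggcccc
MCM10: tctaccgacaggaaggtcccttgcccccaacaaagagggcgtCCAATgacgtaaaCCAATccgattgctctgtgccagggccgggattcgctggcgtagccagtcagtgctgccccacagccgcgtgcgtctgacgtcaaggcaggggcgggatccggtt

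Genes of the same steps outside the set were taken from further lists. Of 14 other genes of the pre-replicative complex and initiation, 2 fell and 1 rose, with a median of -0.25, and the 14.3% lower was no more than the 16.3% of all genes. The origin recognition subunit ORC2 changed by -1.50 ± 0.18 (adjusted p = 0.000379, limma), from 8.88 to 9.05 in saline to 6.85 to 7.71 with CpG-ODN, and ORC3 by -0.61 ± 0.12 (adjusted p = 0.00495). MCMBP, an MCM-binding protein, was the gene that rose, by 0.44 ± 0.14 (adjusted p = 0.0428), and it lost its call in 12 alternatives, the omission of any array but saline replicate 1 and CpG-ODN replicate 4 among them. At the replication fork 10 of 29 genes fell and 1 rose, 34.5% lower against 16.3% of all genes (median -0.29). RFC1, the large subunit of the clamp loader, changed by -1.06 ± 0.11 (adjusted p = 0.000172), while its other probe stood at -0.35 (adjusted p = 0.259). POLD1, the catalytic subunit of polymerase delta, changed by -0.75 ± 0.11 and the nuclease gene DNA2 by -0.73 ± 0.13 (adjusted p = 0.00115 and 0.00262). CLSPN, a checkpoint mediator named after its value was seen, was the fork gene that rose, by 0.62 (adjusted p = 0.0318), and no fork gene was called higher in 11 alternatives, among them median scaling, the authors' normalized table and the omission of saline replicate 2, 3 or 4 or of CpG-ODN replicate 4. PCNA, the sliding clamp, stood at 0.03 with an interval from -0.29 to 0.35 (adjusted p = 0.908), a sign that turned to -0.01 by median scaling.

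Regulators of the transition went both ways. Of 24 measured, 7 fell and 2 rose, 29.2% lower against 16.3% of all genes, with a median of -0.07. Those that rose were LIN54, a DNA-binding subunit of the DREAM complex, by 1.49 ± 0.16 (adjusted p = 0.000181, limma), and TFDP2, a dimerisation partner of E2F factors, by 1.26 ± 0.16 (adjusted p = 0.000395), with its other probe at 0.69 (adjusted p = 0.0312). RBL1, the pocket protein p107, changed by -1.38 ± 0.22 (adjusted p = 0.00157) and was detected on 2 of 4 CpG-ODN arrays, so its size rests partly on background. RB1, the retinoblastoma gene, changed by -0.44 ± 0.13 (adjusted p = 0.0264), a call lost without any 1 of 5 arrays, saline replicates 2 and 4 and CpG-ODN replicates 1, 2 and 4, with adjusted p from 0.0612 to 0.0751. CDK2, the partner of cyclin E, stood at -0.28 (adjusted p = 0.114) and its other probe at -0.29 (adjusted p = 0.440).

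Of 6 CDK inhibitors, 1 fell and none rose, 16.7% lower against 16.3% of all genes. CDKN1C changed by -1.38 ± 0.30 (adjusted p = 0.00747, limma), detected on 3 of 4 CpG-ODN arrays, and CDKN1A, the p53 target p21, stood at -0.13 with an interval from -0.41 to 0.15 (adjusted p = 0.497). Of 15 other genes of nucleotide supply 3 fell and none rose, with a median of -0.17, and the 20% lower was also near the share of all genes. These were the pyrimidine synthesis genes CTPS2, CAD and CTPS1, at -0.72 ± 0.13, -0.58 ± 0.13 and -0.53 ± 0.14 (adjusted p = 0.00267, 0.00823 and 0.0175). Of the other probes of CTPS2, 1 stood at -0.63 (adjusted p = 0.0126) and 1 at -0.10 (adjusted p = 0.769).

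The G2/M and mitosis genes had 16 of 37 lower, none higher and a median of -0.39, against 13 of 33, none and -0.35 for the replication genes. The shares lower were 43.2% and 39.4%, where 16.3% of all genes were lower. HMMR changed by -1.76 ± 0.11 and CEP55, a protein of cell abscission, by -0.80 ± 0.13 (adjusted p = 3.35e-05 and 0.00151, limma). CENPE, a kinetochore motor, changed by -0.87 ± 0.16 (adjusted p = 0.00299). MKI67, the proliferation marker Ki-67, lay between 7.84 and 8.11 in saline and between 7.20 and 7.58 with CpG-ODN, a change of -0.53 ± 0.13 (adjusted p = 0.0137). No test of the difference between the lists was made, so nothing here is particular to the replication genes.

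**Figure D4:**
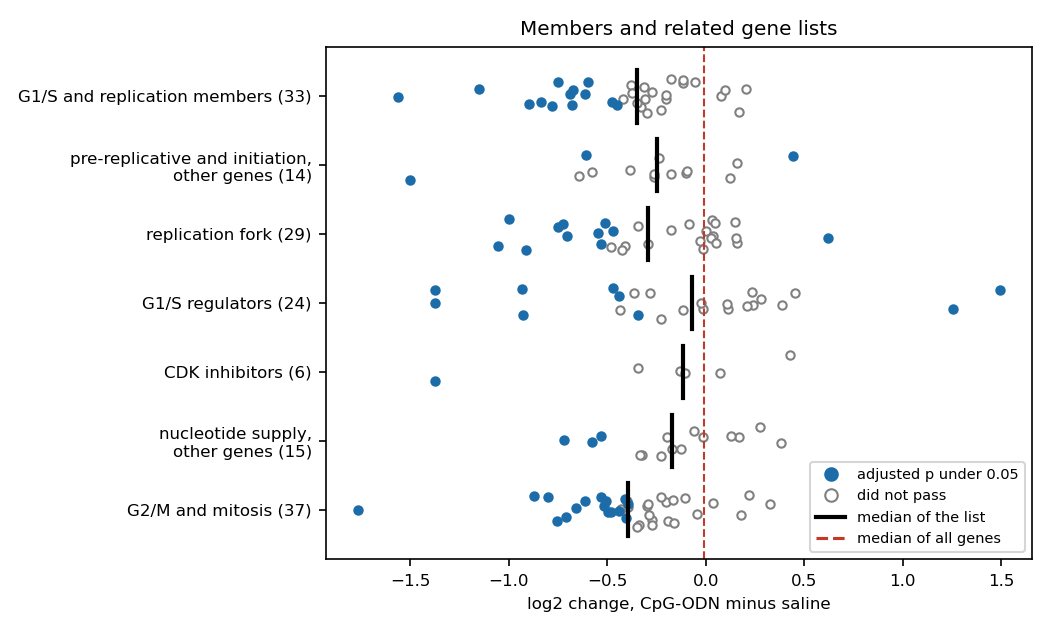
Log2 change (CpG-ODN minus saline) of each measured gene of the replication set and of 6 related lists, with the number measured in parentheses; filled points passed an adjusted p of 0.05, black bars are list medians and the dashed line is the median of all genes at -0.01. The replication set and the G2/M list have medians of -0.35 and -0.39, and the G1/S regulators hold the 2 genes above 1.

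Markers of host cells were few on this human array. Of 11 macrophage markers 5 were measured, of which CD14 and CD68 rose and AIF1 fell. Their summed linear intensity was 5631 to 7487 on saline arrays and 7067 to 10669 on CpG-ODN arrays, with overlap. CD68 carried most of that sum, at a mean of 12.28 in saline, and CD14 was detected on 1 of 4 saline arrays. The probes are human and the host is a mouse, so a sum over markers may not measure host cells. Of 5 endothelial markers 3 were measured and 2 rose, VWF and CDH5, and the sum was 546 to 640 on saline arrays and 834 to 1133 on CpG-ODN arrays, without overlap. CDH5 carried most of the endothelial sum, at a mean of 8.84 in saline. None of 8 lymphocyte markers, 2 of 4 neutrophil markers, 3 of 7 fibroblast markers and 4 of 4 mesothelial markers had a kept probe. Among the mesothelial markers, which bear on cells taken from the peritoneal wall, LRRN4 fell (-0.40, adjusted p = 0.0459, limma) and UPK3B rose (0.67, adjusted p = 0.0487), and their sum was 847 to 966 on saline arrays and 694 to 871 on CpG-ODN arrays, with overlap. No neutrophil or fibroblast marker passed. PTPRC, CSF1R, CD163, ITGAM, KDR and COL3A1 had none. The carcinoma markers summed to between 83981 and 89049 in saline and between 72726 and 82598 with CpG-ODN, also without overlap. None of the 11 was called lower, and KRT18 was the only one called (0.75 ± 0.16, adjusted p = 0.00782, limma). KRT19, the brightest of them at a mean of 14.98 in saline, weighs most in that sum. It stood at -0.28 and did not pass (adjusted p = 0.141, limma). The part of these markers in the lower replication transcripts was not tested.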

How the data were processed

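Total RNA of 4 saline and 4 CpG-ODN samples was hybridised to 1-colour Illumina bead arrays, 1 sample each. The deposited intensity values of the main table are mean signals of each probe before normalization, per the file headers. Beside each stands a deposited detection p-value. The authors' second table holds normalized intensity values with 1 distribution on every array, made by a method not stated in the labels or headers. The submitters' processing notes name BeadStudio.

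Signals were corrected and normalized with neqc (limma 3.58.1, R 4.3.3; background from the detection p-values, offset 16, quantile). Of 48797 probes 18184 were kept. Platform names were updated by gene identifier through the RefSeq table of GRCh38.p14, and of the kept probes 14584 had 1 gene, 3 several and 3597 none here. The groups were tested in limma (lmFit, then eBayes), two-sided, and p-values were adjusted by Benjamini-Hochberg across every kept probe, with 0.05 as threshold. Intervals are 95%. All adjusted p-values come from this limma fit unless an alternative is named. Genes given with every array's value, by their brightest probe, were those that passed and MCM2, MCM3, CDT1, GMNN, TYMS and CCND1. MCM4 and MCM5 were given by change and interval. RRM1, ORC6, CDC6 and CLSPN were added for their values. From each related list up to 3 genes with the smallest p are named, with PCNA, MKI67, CDKN1A, RB1 and CDK2. The members, lists and rules were chosen with earlier results of these data known. Tested on simulated data (18184 probes), the fit found 64 of 100 changes of size 1 (log2), 7 of 100 of size 0.5, and made 3 false calls. Only those changes were put in, a far smaller share of probes than the 26.6% called in the data. The adjustment was therefore stricter there, and these counts do not give the sensitivity of the fit to the data. The number of arrays limits the precision. Alternatives covered background, normalization, the second table, the filter, weights, trend, a 1.5-fold test, the replicate number as a block, omission of each array, and the mean of a gene's probes.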

Additional observations from a re-analysis of the deposited data

Results flagged for a closer look

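In 8 of 70 groups of 4 arrays examined, 1 array lay far from the other 3, and chance gives about 1 in 20. The gap to the nearest array, as a share of the group's range, was 0.831 for MCM6 in saline, where replicate 4 was highest at 13.04, and 0.902 for MCM10 in saline, where replicate 3 was highest at 11.23. It was 0.836 for UHRF1 in saline (replicate 2 highest, 11.80) and 0.949 for TYMS in saline (replicate 4 highest, 13.09). For CCND1 in saline it was 0.889, with replicate 2 lowest at 14.03. With CpG-ODN it was 0.946 for DUT, with replicate 1 highest at 9.79 (9.68 the next), and 0.856 for CDC25A, with replicate 1 lowest at 8.16. For mean raw signal in saline it was 0.852, with replicate 1 the brightest at 1079. Without saline replicate 3, MCM10 stood at -1.41 and kept its call (adjusted p = 0.000370, limma).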

How the results depend on the processing

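The count of replication genes lower lay between 11 and 18 in the alternatives other than leaving out arrays, except for a test against 1.5-fold. That test kept 1, MCM10, and called 207 of all genes lower in place of 1801. With no filter on dim probes the count was 11 of 37, where 7.74% of all genes were lower. With detection on at least 1 array it was 11 of 35, against 10.9%. It was 18 of 33 with no background correction or in the authors' normalized values (18.3% of all genes) and with a mean-variance trend (18.0%). On leaving out single arrays it ran from 10 to 14 of 33, where 13.3% to 14.5% of all genes were lower. The count higher was 0 in every alternative run. The median of -0.35 ran from -0.41 to -0.30 on leaving out arrays and moved to -0.49 with median scaling and to -0.54 with no normalization between arrays. The median of all genes then stood at -0.13 and -0.18, and median scaling called 1915 of all genes lower and 486 higher, against 1801 and 1417. Median scaling over kept probes, chosen after seeing the data, gave 12 lower, a median of -0.29 and 1551 lower against 1824 higher of all genes. Signs turned only for genes that did not pass. CDT1, GINS4, SLBP and PCNA stood at -0.0613, -0.0262, -0.00427 and -0.0112 with median scaling and at -0.11, -0.0747, -0.0527 and -0.0596 with no normalization. MCM2, ORC6 and CDKN1A stood at 0.0428, 0.17 and 0.0166 with scaling over kept probes, and PCNA at -0.00137 with array weights. On leaving out single arrays ORC6 ran from -0.28 to 0.14, PRIM2 from -0.17 to 0.54 and PCNA from -0.0261 to 0.13. The cause was not tested. With the replicate number as a block 12 fell, and ORC1 was lost (-0.45, adjusted p = 0.0727, limma). Same-numbered arrays did not deviate together (correlations from -0.27 to 0.09), and for 1 of 4 numbers the correlation was highest with its own. These values cannot show whether the samples were paired by number. In the G2/M list 9 fell with no filter on dim probes and 10 without CpG-ODN replicate 1, against 16.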
